A study of Mus musculus with 3 samples.

Results

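The elastic fibre and microfibril genes described here are 10 genes chosen by name, Fbn1, Fbn2, Mfap2, Mfap5, Mfap4, Eln, Fbln1, Fbln2, Fbln5 and Efemp1. Each of the 10 has a row in all 4 deposited count tables, which together list 21438 genes. The tables come from Drop-seq of adult mouse sciatic nerve, a droplet method that tags transcripts by cell and by molecule, the molecular tag being a unique molecular identifier (UMI). The first group is distal sciatic nerve of CD1 and C57BL/6 mice, taken 9 days after the nerve was resected, with cells sorted by FACS through a gate not stated in any source at hand. The second is distal nerve of Wildtype CD1 mice at the same time after resection, with cells cleaned by myelin removal beads. The third is uninjured sciatic nerve of Wildtype CD1 mice, prepared with beads, of which the table used here holds mesenchymal cells only. All mice were adult, and all nerves were dissociated with collagenase and trypsin. Each group is 1 library of pooled cells whose number of animals is not stated, so the differences below lack replicates to check them against, and no p-value was computed.

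Elastic fibres give a tissue recoil. They are built around a core of cross-linked elastin laid on a scaffold of microfibrils, and microfibrils also occur without elastin. The microfibril backbone is made of fibrillins, to which small microfibril-associated glycoproteins bind. Fibulins join elastin to microfibrils, basement membranes and cells, and microfibrils also hold latent TGF-beta and BMP family ligands. A peripheral nerve has an outer epineurium rich in collagen and elastic fibres, a perineurium of flattened cells in sheets around each fascicle, and an endoneurium of loose matrix between the axons.

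Mesenchymal cells as picked out by the authors numbered 1289 injured beads cells, with 4746263 UMIs and a median of 2798, and 880 uninjured cells, with 2169121 UMIs and a median of 2102.5. All 8 mesenchymal markers were detected in both, at a joint level of 60363 CPM among injured cells and 97232 CPM among uninjured cells. The FACS library held 2000 barcodes and the injured beads library 4300 when all cells are counted, of which 1914 FACS and 4111 beads barcodes had at least 200 detected genes. The injured beads and FACS tables shared 1 barcode, and the injured and uninjured tables shared 0. Levels are given as CPM, counts per 1000000 UMIs of a pool of cells summed together, and brackets hold 95% intervals. CPM here is not scaled by gene length, so levels are compared between pools and not between genes. These are exact Poisson intervals for CPM, exact conditional binomial intervals for log2 ratios and exact binomial intervals for shares, and they cover counting error only. A gene is called higher or lower where 1 of the pools had at least 50 CPM, the levels differed 2-fold or more and the interval left out equality. Genes were tested in a comparison when a pool reached 10 CPM. In pooled counts, fewer cells with a transcript and less transcript per cell cannot be told apart.

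Promoter windows around a RefSeq transcription start are shown for 3 of the genes. They are shown because Mfap2 and Fbln2 met the calls for higher and lower in injured mesenchymal cells, and Fbn1 is the fibrillin against which the share of Fbn2 is set. The windows run from 250 bases before to 50 bases after a RefSeq transcription start on GRCm38.p6, and for Mfap2, which has 2 entries, the start nearest the annotated gene start was taken. The Fbn1 and Fbln2 windows lie wholly inside the annotated genes, which start at base 125507993 (Fbn1, minus strand) and base 91212455 (Fbln2, plus strand). Motif distances are therefore from the RefSeq start and not from the annotated gene start. Capitals mark matches to 4 motifs searched on both strands, the GC box GGGCGG, the CCAAT box CCAAT, the TATA box TATAAA and the AP-1 site TGANTCA.
Fbn1 promoter, chr2:125506389-125506688, minus strand: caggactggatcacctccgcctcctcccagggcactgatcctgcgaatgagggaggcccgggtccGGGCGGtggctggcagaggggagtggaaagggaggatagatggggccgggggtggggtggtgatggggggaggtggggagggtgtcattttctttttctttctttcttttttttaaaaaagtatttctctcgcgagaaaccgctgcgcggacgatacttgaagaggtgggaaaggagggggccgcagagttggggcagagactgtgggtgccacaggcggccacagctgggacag
Mfap2 promoter, chr4:141010174-141010473, plus strand: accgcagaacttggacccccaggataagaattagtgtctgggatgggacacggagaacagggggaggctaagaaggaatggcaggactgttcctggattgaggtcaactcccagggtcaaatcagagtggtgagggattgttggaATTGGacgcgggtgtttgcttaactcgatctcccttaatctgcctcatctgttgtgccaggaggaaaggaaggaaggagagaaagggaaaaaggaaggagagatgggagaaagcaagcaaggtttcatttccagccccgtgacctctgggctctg
Fbln2 promoter, chr6:91212514-91212813, plus strand: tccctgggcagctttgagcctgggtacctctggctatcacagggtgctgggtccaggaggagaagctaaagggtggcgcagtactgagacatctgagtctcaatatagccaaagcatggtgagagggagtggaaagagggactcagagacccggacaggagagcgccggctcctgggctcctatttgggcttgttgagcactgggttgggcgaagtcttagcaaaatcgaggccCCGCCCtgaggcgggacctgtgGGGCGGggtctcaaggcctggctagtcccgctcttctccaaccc
The Fbn1 window held 1 GC box, beginning 185 bases before the start. The Mfap2 window held 1 CCAAT box on the opposite strand, 105 bases before the start. The Fbln2 window held 2 GC boxes, one of which began 16 bases before the start on the opposite strand and the other just after it. The 3 windows held 0 matches to the TATA box and to the AP-1 site, and no matches overlapped. Over all 32851 RefSeq windows of this length, 35.7% held the GC box, 37.4% the CCAAT box, 13.6% the TATA box and 7.81% the AP-1 site, so the matches are common letters and are given as a description. The promoter table had entries for 6 of the 10 genes. Fbn2, Mfap5, Mfap4 and Eln are named only.

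The first comparison set injured against uninjured mesenchymal cells of the beads libraries. Of the 10 genes, 2 were higher in injured cells (Fbn2 and Mfap2), 1 was lower (Fbln2) and 7 met neither call. Over all 9776 genes tested, 3.3% were called higher and 2.89% lower. Among the 3963 genes that reached 50 CPM in a pool, 8.15% were called higher and 7.14% lower. The median log2 ratio of the 10 genes was 0.07, beside 0.19 for all genes tested.

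The fibrillins form the microfibril backbone, and of the pair Fbn2 met the call for higher in injured cells. Fbn2, the fibrillin best known from developing tissues, lies on chromosome 18. It measured 370 CPM (352 to 387) in injured cells, against 11.5 CPM (7.46 to 17.0) in uninjured cells, a log2 ratio of 5.0 (4.44 to 5.63). A Fbn2 UMI was found in 41.9% of injured cells (39.2 to 44.6) and in 2.16% of uninjured cells (1.30 to 3.35). With each cell thinned to 1000 UMIs, 21.5% of 974 injured cells and 1.31% of 761 uninjured cells had one. In B cell-like cells of the injured library, a class not expected to make it, 1.54% had a Fbn2 UMI at a median of 764 UMIs per cell, which gives the background of that library alone, since the uninjured table has no such class. Fbn1, the main fibrillin of adult tissue, lies on chromosome 2 (125300594 to 125507993, minus strand). It measured 1302 CPM in injured cells and 943 CPM in uninjured cells, a log2 ratio of 0.47 (0.39 to 0.54) that did not reach 2-fold. Fbn2 thus made up 22.1% (21.2 to 23.0) of the 2 fibrillins' UMIs in injured cells and 1.21% (0.783 to 1.78) in uninjured cells.

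Mfap2 and Mfap5 encode the paired small glycoproteins that bind fibrillins, MAGP-1 and MAGP-2. Mfap2 (chromosome 4, 141010418 to 141015984, plus strand) measured 669 CPM (646 to 692) in injured cells and 264 CPM (243 to 286) in uninjured cells, a log2 ratio of 1.34 (1.21 to 1.47). It was detected in 63.4% of injured and 37.3% of uninjured cells, and in 43.8% and 20.4% of the thinned injured and uninjured cells. Mfap5 (chromosome 6, 122505845 to 122529290, plus strand) measured 1524 CPM in injured cells and 1004 CPM in uninjured cells, a log2 ratio of 0.60 (0.53 to 0.67). The intervals of both ratios lay above 0, and Mfap2 alone passed 2-fold. Mfap2 made up 30.5% of the pair's UMIs in injured cells and 20.8% in uninjured cells.

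Elastin and Mfap4 met no call. Eln, the elastin gene (chromosome 5, 134702593 to 134747323, minus strand), measured 17.7 CPM (14.1 to 21.9) in injured cells and 38.3 CPM (30.5 to 47.4) in uninjured cells. Its log2 ratio was -1.11 (-1.57 to -0.66), without a call because neither pool reached 50 CPM. With endoneurial-like, epineurial-like and perineurial-like cells given the same weight in both pools and other cells left out, the Eln ratio was -0.05. Mfap4, whose product binds elastin and fibrillin (chromosome 11, 61485431 to 61488900, plus strand), measured 285 CPM in injured cells and 277 CPM in uninjured cells, a log2 ratio of 0.04 (-0.10 to 0.19). Its annotated last 89 bases overlap Mapk7 on the other strand, and whether counting used strand is not stated. Gm9913, Gm26507 and Gm30003 likewise overlap Fbn1, Fbn2 and Eln at or near the 5′ end on the opposite strand, so reads from the overlaps cannot be told apart.

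Of the fibulins, Fbln2 alone met a call in the pooled cells. Fbln2 encodes a basement membrane and elastic fibre fibulin (chromosome 6, 91212455 to 91272540, plus strand). It measured 295 CPM (280 to 311) in injured cells and 793 CPM (756 to 831) in uninjured cells, a log2 ratio of -1.43 (-1.53 to -1.32). It was found in 44.6% of injured and 62.5% of uninjured cells. Fbln2 is also a transcript of Schwann and endothelial cells, as shown further on. Summed over all 8 markers, Schwann cell genes came to 78.2 CPM among injured mesenchymal cells and 329 CPM among uninjured ones, and endothelial genes to 167 CPM among injured and 207 CPM among uninjured ones. Without cells holding 2 or more UMIs of other classes' markers, the Fbln2 ratio was -1.36. Fbln1 (chromosome 15, 85205949 to 85286535, plus strand), a fibulin of basement membranes and fibres, measured 330 CPM in injured cells and 429 CPM in uninjured cells, a log2 ratio of -0.38 (-0.50 to -0.26). Fbln5, which carries elastin onto microfibrils (chromosome 12, 101746565 to 101819055, minus strand), measured 173 CPM in injured cells and 167 CPM in uninjured cells, a log2 ratio of 0.05 (-0.13 to 0.23). Efemp1, which encodes fibulin-3 (chromosome 11, 28853204 to 28926743, plus strand), measured 460 CPM in injured cells and 433 CPM in uninjured cells, a log2 ratio of 0.09 (-0.02 to 0.20). The intervals of Fbln5, Efemp1 and Mfap4 included 0 in this pooled comparison. The FACS over uninjured ratios were 0.85 (0.71 to 0.98) for Mfap4 and 0.32 (0.15 to 0.50) for Fbln5, and within subclasses Fbln5 and Efemp1 had intervals above 0, as given further on. With endoneurial-like, epineurial-like and perineurial-like cells at equal weight and other cells left out, the Efemp1 ratio was 0.66.

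**Figure D1:**
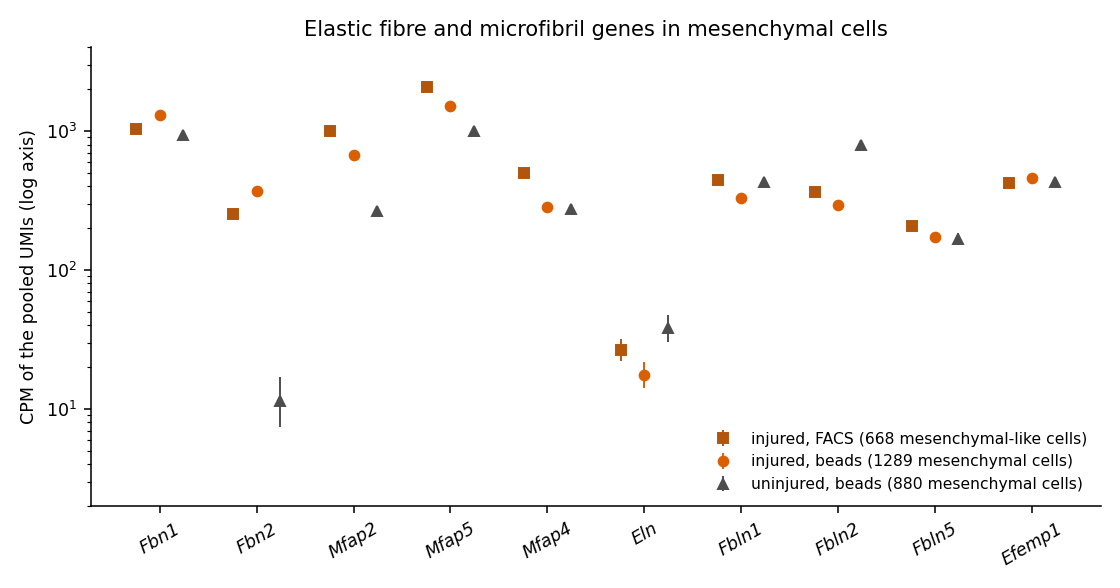
Levels of the 10 genes, as CPM on a log axis, in injured FACS mesenchymal-like cells (squares), injured beads mesenchymal cells (circles) and uninjured beads mesenchymal cells (triangles), with 95% Poisson intervals. Fbn2 and Mfap2 lie higher, and Fbln2 lower, in both injured pools than in the uninjured pool, while Fbln5 and Efemp1 lie close together, at 173 and 167 CPM (Fbln5) and 460 and 433 CPM (Efemp1) in injured and uninjured beads cells.

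The calls depended in part on which mesenchymal cells each pool held and at what weight. One alternative gave endoneurial-like, epineurial-like and perineurial-like cells equal weight and left out all other cells, nearly all of them injured. There Mfap2 had a ratio of 0.96 and Fbln2 of -0.83, so 1 gene (Fbn2, at 4.73) stayed higher and 0 were lower. This alternative changed the weights and the cells held at once, and the part of each was not tested. Scaling by TMM factors shifted every ratio by -0.13 and left the same 2 genes higher and 1 lower. Over all genes it changed the split of 323 higher and 283 lower to 252 higher and 349 lower. The 7 cell division markers came to 398 CPM among injured cells, against 13.8 CPM among uninjured cells, and the same 3 genes met the calls without cells holding 2 or more such UMIs.

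The FACS library gave a second injured sample, from mice of a partly different strain background. Against the uninjured cells, its 668 mesenchymal-like cells had 3 of the 10 genes higher (Fbn2, Mfap2 and Mfap5) and 1 lower (Fbln2), where 4.48% of all genes tested were called higher and 3.37% lower. For genes that reached 50 CPM in a pool these shares were 11.1% higher and 8.31% lower. Fbn2 measured 252 CPM in FACS cells and 11.5 CPM in uninjured cells, a log2 ratio of 4.45 (3.88 to 5.08). Mfap2 measured 1003 CPM in FACS cells and 264 CPM in uninjured cells, a log2 ratio of 1.93 (1.80 to 2.06). Mfap5 measured 2065 CPM in FACS cells and 1004 CPM in uninjured cells, a log2 ratio of 1.04 (0.97 to 1.11), which was 0.95 under TMM scaling and so lost its call. Fbn2 and Mfap2 thus met the call in both injured libraries. Fbln2 measured 364 CPM in FACS cells and 793 CPM in uninjured cells, a log2 ratio of -1.12 (-1.22 to -1.02). Eln measured 26.7 CPM in FACS cells and 38.3 CPM in uninjured cells, a log2 ratio of -0.52 (-0.94 to -0.09) that was -1.42 when only cells with at least 500 genes were kept. This comparison shares its uninjured cells with the first one.

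Between the injured libraries, FACS over beads, 0 of the 10 genes were called higher and 0 lower, where 1.51% of all genes tested were called higher and 0.661% lower. Counted over genes that reached 50 CPM in a pool, 3.66% were called higher and 1.6% lower. All 10 differences were under 2-fold, and the intervals of all 10 ratios left out 0. The highest was Mfap4, with 497 CPM in FACS cells and 279 CPM in beads cells, a log2 ratio of 0.83 (0.73 to 0.94). The lowest was Fbn2, with 252 CPM in FACS cells and 358 CPM in beads cells, a log2 ratio of -0.51 (-0.62 to -0.40). With only cells of at least 500 genes, the ratio of Eln turned to -0.34, against 0.49 (0.07 to 0.92) in all cells kept, that of Fbln2 turned to -0.15, against 0.34 (0.23 to 0.45), and that of Mfap4 was 0.50. Strain background, isolation and gate differ together between these libraries and cannot be told apart.

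Within the injured and uninjured mesenchymal cells, clusters were named from subclass markers with the 10 genes left out of the clustering. Epineurial-like cells numbered 199 injured and 380 uninjured cells, perineurial-like cells 74 and 66 injured and uninjured cells, and endoneurial-like cells 244 injured and 428 uninjured cells. The endoneurial-like cells lay in different clusters, with 243 of the injured cells in one and the 428 uninjured cells in another, and their median UMIs were 6304 in injured and 2178 in uninjured cells. A further 392 injured and 0 uninjured cells were differentiating-like, of which 348 lay in a cluster led by Dlk1, Mest and Ptn and 44 in one led by cell division genes. The unnamed clusters held 380 injured and 6 uninjured cells.

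Endoneurial-like cells are the fibroblast-like cells between the axons. Of the 8 genes tested there, 3 were higher in injured cells (Fbn2, Fbln1 and Fbln5) and 1 was lower (Fbln2), where 4.34% of all genes tested were called higher and 3.81% lower. The shares were 10.8% higher and 9.51% lower for genes that reached 50 CPM in a pool. Fbn2 measured 479 CPM (446 to 514) in injured cells, 359 CPM in the FACS library's 83 endoneurial-like cells and 16.2 CPM (9.58 to 25.5) in uninjured cells. Without thinning, it was found in 77.5% of injured beads cells and in 3.5% of uninjured cells, which had the lower median UMIs. Fbln1 measured 67.4 CPM (55.4 to 81.3) in injured cells, 71.8 CPM in FACS cells and 10.8 CPM (5.57 to 18.8) in uninjured cells, an injured beads over uninjured log2 ratio of 2.65 (1.78 to 3.64). Fbln5 measured 135 CPM (118 to 155) in injured cells, 141 CPM in FACS cells and 22.5 CPM (14.5 to 33.1) in uninjured cells, a log2 ratio of 2.59 (1.99 to 3.25). B cell-like cells of the injured library had 9.66 CPM of Fbln1 and 11.6 CPM of Fbln5, and the background of the uninjured library was not measured.

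Fbln2 took the opposite course in these cells. It measured 131 CPM (114 to 149) in injured endoneurial-like cells, 134 CPM in those of the FACS library and 658 CPM (611 to 708) in uninjured ones, an injured beads over uninjured log2 ratio of -2.33 (-2.56 to -2.11). It was found in 48.4% of injured and 68.7% of uninjured endoneurial-like cells, and after thinning to 1000 UMIs in 12.2% of injured and 44.9% of uninjured ones. Fbln2 therefore made up 65.9% (60.5 to 71.1) of the UMIs of Fbln2 and Fbln1 in injured endoneurial-like cells and 98.4% (97.2 to 99.2) in uninjured ones. Schwann cell markers came to 60.7 CPM among injured endoneurial-like cells, with 7 of 8 detected and Gfra3 at 0, and to 376 CPM among uninjured ones, with 8 of 8 detected, and their part in the Fbln2 difference was not tested. Fbn1 (981 CPM in injured, 536 CPM in uninjured cells), Mfap2 (503 and 266 CPM in injured and uninjured cells) and Efemp1 (829 and 513 CPM in injured and uninjured cells) had ratios under 2-fold with intervals above 0. Mfap4 and Eln stayed under 10 CPM in both pools and were not tested.

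Epineurial-like cells, of the outer sheath, held Eln, Mfap4 and Fbln5 in both conditions. There 0 of the 10 genes tested were called higher and 0 lower, where 1.69% of all genes tested were called higher and 0.916% lower. When only genes that reached 50 CPM in a pool are counted, 4.18% were called higher and 2.26% lower. Eln measured 81.3 CPM (56.0 to 114) in injured cells and 87.1 CPM (68.9 to 109) in uninjured cells. Mfap4 measured 665 CPM in injured cells and 629 CPM in uninjured cells, and Fbln5 345 CPM in injured cells and 357 CPM in uninjured cells. All 3 had intervals of the ratio that included 0, and in both conditions their levels stood above those of endoneurial-like cells. Fbn2 measured 22.2 CPM (10.1 to 42.1) in injured cells and 7.71 CPM (3.10 to 15.9) in uninjured cells, with 9 and 7 UMIs in injured and uninjured cells and a ratio interval of -0.07 to 3.18. Its 204 CPM in the FACS library's 225 epineurial-like cells came mainly from a cluster led by Sfrp2 and Lpl (284 CPM). That cluster's own leading genes also include Dlk1, a gene that leads the differentiating-like cells. The largest ratio with an interval above 0 was that of Efemp1, with 638 CPM in injured cells and 342 CPM in uninjured cells, a log2 ratio of 0.90 (0.66 to 1.14). Fbln2, called lower in the pooled cells, measured 863 CPM in injured and 1069 CPM in uninjured epineurial-like cells. Its log2 ratio there was -0.31 (-0.49 to -0.13), under 2-fold.

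Perineurial-like cells, the sheet-forming cells around the fascicles, had few UMIs, and intervals were wide. Of the 9 genes tested, 2 were higher in injured cells (Fbn2 and Mfap2) and 2 lower (Mfap4 and Fbln2), where 2.9% of all genes tested were called higher and 3.79% lower. For genes that reached 50 CPM in a pool the shares were 5.73% higher and 7.5% lower. Fbn2 had 28 UMIs (130 CPM) in injured cells and 0 UMIs in uninjured cells, so it was at least 4.57-fold higher by the lower bound of the interval, and 6.01-fold higher when set against 3 counts over the uninjured pool. Mfap2 measured 126 CPM in injured cells and 14.5 CPM in uninjured cells, where it had 2 UMIs, a log2 ratio of 3.12 (1.13 to 6.24). The Mfap4 call rests on 1 uninjured cell, which held all 13 of the pool's UMIs, against 1 UMI in injured cells. Fbln2 measured 27.9 CPM in injured cells and 86.7 CPM in uninjured cells, a log2 ratio of -1.63 (-3.33 to -0.11) that rests on 6 and 12 UMIs in injured and uninjured cells. Schwann cell markers came to 55.9 CPM among injured perineurial-like cells, with 4 of 8 detected, and 361 CPM among uninjured ones, with 7 of 8 detected, and their part in this difference was not tested. Mfap5 measured 1620 CPM in injured cells and 2277 CPM in uninjured cells, a log2 ratio of -0.49 (-0.72 to -0.27), against ratios above 0 in the other 2 subclasses.

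**Figure D2:**
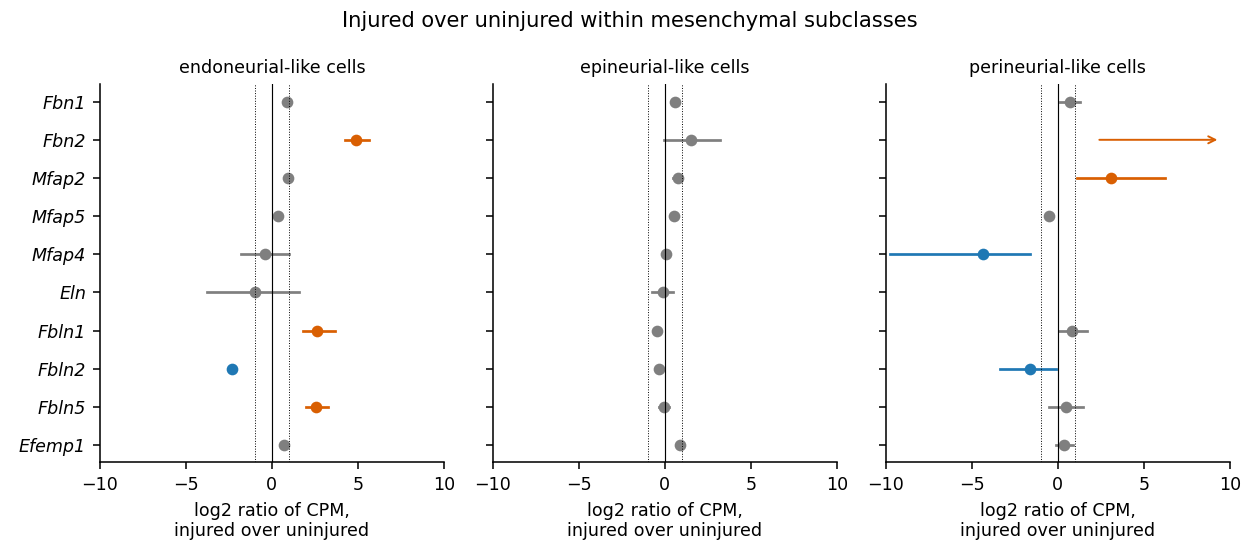
Log2 ratio of CPM, injured over uninjured, for each gene in endoneurial-like, epineurial-like and perineurial-like cells, with 95% intervals as bars, calls in orange (higher) and blue (lower) and dotted lines at 2-fold. The arrow for Fbn2 in perineurial-like cells starts at the lower bound, as the uninjured pool had 0 UMIs, and Eln is not drawn there because it had 1 UMI in injured and 0 in uninjured cells.

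The fibrillin and MAGP pairs can also be given as shares, which need no scaling. Fbn2 made up 32.8% (30.9 to 34.8) of fibrillin UMIs in injured endoneurial-like cells and 2.93% (1.74 to 4.59) in uninjured ones. In epineurial-like cells its share was 9.53% (8.38 to 10.8) in the FACS library, 0.952% (0.436 to 1.80) in injured beads cells and 0.498% (0.200 to 1.02) in uninjured cells, so the injured libraries differed and the beads intervals overlap. Mfap2 made up 47.2% of its pair in injured beads and 37.5% in uninjured endoneurial-like cells, and 19.2% in injured beads and 17.3% in uninjured epineurial-like cells. Differentiating-like cells, found in the injured nerve, had 370 CPM of Fbn2, 1465 CPM of Fbn1, 873 CPM of Mfap2 and 2093 CPM of Mfap5. They differed from injured endoneurial-like cells in having more Mfap4 (448 against 6.74 CPM) and Fbln1 (446 against 67.4 CPM) and less Efemp1 (160 against 829 CPM).

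**Figure D3:**
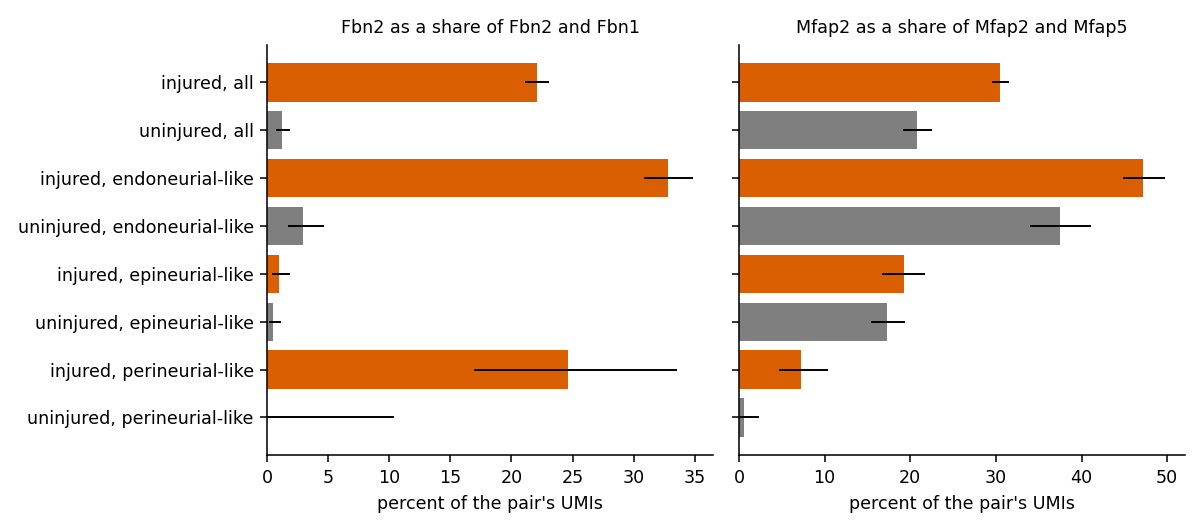
Fbn2 as a percentage of the UMIs of Fbn2 and Fbn1 (left) and Mfap2 as a percentage of the UMIs of Mfap2 and Mfap5 (right) in injured (orange) and uninjured (grey) mesenchymal cells and subclasses of the beads libraries, with exact binomial 95% intervals. Fbn2 stands at 32.8% in injured and 2.93% in uninjured endoneurial-like cells and below 1% in both epineurial-like pools of the beads libraries, while the FACS epineurial-like pool, not drawn, had 9.53%.

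Inside the epineurial-like cells 5 of the 10 genes divided between clusters in each of the 3 libraries. A cluster led by Pcsk6, Smpd3 and Pi16 was rich in Fbn1, Mfap5 and Efemp1, and one led by Comp and Fmod was rich in Mfap4 and Fbln1. These 2 clusters and 5 genes were chosen after their values were seen, so the differences are a description. Mfap2 had overlapping intervals in the beads libraries, with 388 and 509 CPM in the Pcsk6 and Comp clusters of injured cells and 361 and 328 CPM in those of uninjured cells. Fbn1 measured 4600 CPM in the Pcsk6 cluster of FACS cells, 5046 CPM in that of injured beads cells and 3968 CPM in that of uninjured cells. In the Comp cluster Fbn1 measured 458 CPM in FACS cells, 74.9 CPM in injured beads cells and 343 CPM in uninjured cells. Mfap4 ran the other way, with 41.1 CPM in the Pcsk6 cluster of FACS cells, 48.5 CPM in that of injured beads cells and 43.8 CPM in that of uninjured cells. In the Comp cluster Mfap4 measured 2563 CPM in FACS cells, 1572 CPM in injured beads cells and 1110 CPM in uninjured cells. The intervals of the clusters did not overlap for either gene in any library. Efemp1 measured 1919, 1087 and 887 CPM in the Pcsk6 clusters and 102, 210 and 82.0 CPM in the Comp clusters of FACS, injured beads and uninjured cells. A remaining beads cluster, led by Gdf10 and Inmt, lay between them, with 1742 CPM of Fbn1 in injured and 1276 CPM in uninjured cells. The Pcsk6 and Comp clusters held 28 to 98 cells each, and in the smallest 1 cell held 21 of 105 Mfap4 UMIs.

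**Figure D4:**
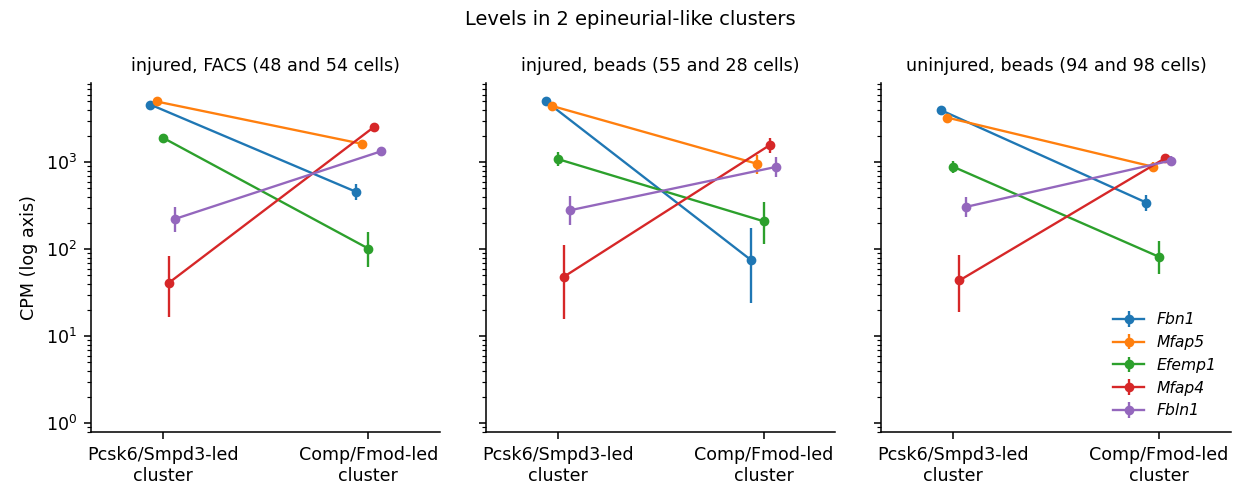
CPM (log axis) of 5 genes in the epineurial-like clusters led by Pcsk6 and Smpd3 (left points) and by Comp and Fmod (right points) in injured FACS, injured beads and uninjured beads cells, with 95% Poisson intervals. Fbn1, Mfap5 and Efemp1 slope down and Mfap4 and Fbln1 slope up in all 3 libraries, with Mfap4 at 43.8 CPM in the Pcsk6 cluster and 1110 CPM in the Comp cluster of uninjured cells.

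The all-cell tables of the injured nerve show which other cells carry these transcripts. In the FACS library 8 of the 10 genes had their highest level in mesenchymal-like cells, among classes of at least 50 cells, with Fbln2 and Fbln5 the exceptions. In the beads library 7 of 10 were highest in the 1095 mesenchymal-like cells, with Fbln2, Fbln5 and Eln the exceptions. B cell-like cells of the beads library had between 0 and 56.0 CPM of each gene, which gives the scale of free RNA there.

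Fbln2, a fibulin of basement membranes, was high in Schwann cells, which wrap axons, and in endothelium. The FACS library gave 706 CPM (604 to 822) of Fbln2 in Schwann cell-like cells, 524 CPM (446 to 611) in endothelial cell-like cells and 364 CPM (346 to 383) in mesenchymal-like cells. The beads library gave 642 CPM (598 to 689) in Schwann cell-like cells, 570 CPM (537 to 603) in endothelial cell-like cells, 288 CPM (272 to 304) in mesenchymal-like cells and 19.3 CPM in B cell-like cells. In both libraries the Schwann and endothelial intervals overlap, and both lie above that of the pooled mesenchymal-like cells. The mesenchymal subclasses of the beads library were spread widely around that pool. Injured epineurial-like cells had 863 CPM of Fbln2, above the Schwann and endothelial levels. Injured differentiating-like, endoneurial-like and perineurial-like cells had 338, 131 and 27.9 CPM, below those levels. Fbln1, the related gene, measured 17.0 CPM in Schwann cell-like and 9.35 CPM in endothelial cell-like cells of the beads library, so Fbln2 made up 97.4% and 98.4% of the pair's UMIs in those classes and 48% in mesenchymal-like cells. The 8 mesenchymal markers came to 11968 CPM in Schwann cell-like and 1593 CPM in endothelial cell-like cells, against 60784 CPM in mesenchymal-like cells. As a pool, the mesenchymal-like cells had the lowest Fbln2 level of these classes. At resolution 1.6 the highest Fbln2 class in the beads library was endothelial cell-like rather than Schwann cell-like.

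Endothelial cell-like cells carried Fbln5 as well as Fbln2. Fbln5 measured 259 CPM (205 to 322) in endothelial cell-like and 209 CPM (196 to 223) in mesenchymal-like cells of the FACS library, intervals that overlap. The beads library gave 302 CPM (279 to 327) in endothelial cell-like cells, 176 CPM (164 to 189) in mesenchymal-like cells and 49.4 CPM in Schwann cell-like cells. Among the mesenchymal subclasses of that library, injured epineurial-like cells had 345 CPM and injured endoneurial-like cells 135 CPM. A cluster of 98 endothelial cell-like cells led by Fabp4, Sele and Selp had the higher levels, with 732 CPM of Fbln2 and 373 CPM of Fbln5, beside 508 and 275 CPM of Fbln2 and Fbln5 in the 475 other cells. Markers of pericytes and smooth muscle summed to 3983 CPM in FACS endothelial cell-like cells, and to 796 CPM in those of the beads library.

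Eln was highest in mural cells, the contractile cells of vessel walls, in the beads library. In the FACS library, where no class of mural cells was named, it measured 25.9 CPM (11.2 to 51.0) in endothelial cell-like and 26.7 CPM (22.0 to 32.0) in mesenchymal-like cells. In beads cells it measured 45.7 CPM (30.4 to 66.1) in pericyte or smooth muscle cell-like cells, 32.5 CPM (25.1 to 41.3) in endothelial cell-like cells and 18.9 CPM (15.1 to 23.5) in mesenchymal-like cells, with 0.81 CPM in Schwann cell-like cells. The mural and endothelial intervals overlap, and both lie above the mesenchymal one. Split further, the 64 smooth muscle-like cells had 88.4 CPM (45.7 to 154), close to the 81.3 CPM of injured epineurial-like cells, and the 160 pericyte-like cells had 33.4 CPM (17.3 to 58.3). Each of these mural pools rests on 12 Eln UMIs.

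The fibrillins and Mfap2 differed between the mural cell types of the beads library, and Mfap5 did not differ beyond its interval. Fbn1 measured 373 CPM (312 to 442) in pericyte-like cells and 29.5 CPM (8.03 to 75.5) in smooth muscle-like cells, and Mfap2 measured 237 CPM (189 to 292) in pericyte-like cells and 7.37 CPM (0.187 to 41.1) in smooth muscle-like cells. Fbn2 measured 83.5 CPM (56.3 to 119) in pericyte-like and 7.37 CPM (0.187 to 41.1) in smooth muscle-like cells. Mfap5 measured 47.3 CPM in pericyte-like and 36.8 CPM in smooth muscle-like cells, and Mfap4 had 2 and 0 UMIs in pericyte-like and smooth muscle-like cells. The largest of the pericyte-like clusters was led by Saa3, Hp, Sfrp4 and Scn7a. Mesenchymal markers came to 11688 CPM in pericyte-like and 2085 CPM in smooth muscle-like cells, and their part in these levels was not tested. Mfap2 made up 83.3% (74.7 to 90.0) of the pair's UMIs in pericyte-like cells, 74.5% (68.5 to 79.8) in Schwann cell-like cells and 31.3% (30.4 to 32.3) in mesenchymal-like cells. The pericyte-like and Schwann cell-like shares both lie above the mesenchymal one. Among mesenchymal subclasses, injured endoneurial-like cells of the beads library had 47.2% (44.9 to 49.6). In the FACS library the share was 60% (45.9 to 73) in Schwann cell-like and 54.2% (51 to 57.4) in endoneurial-like cells, intervals that overlap.

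**Figure D5:**
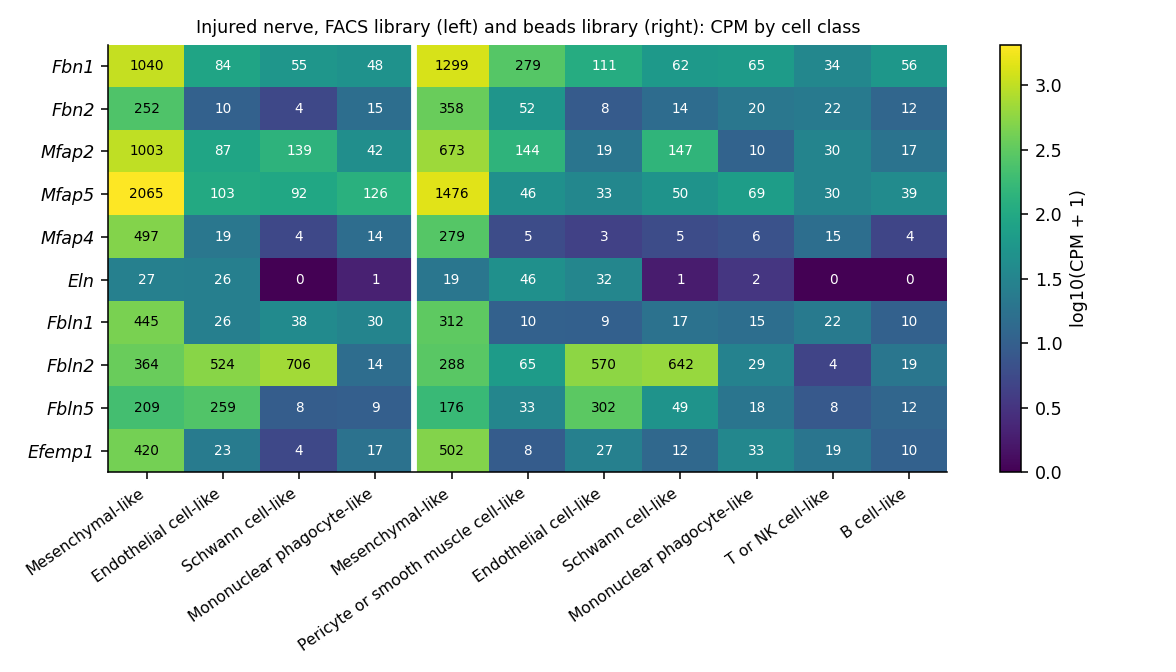
CPM of each gene by cell class in the injured FACS library (left block) and the injured beads library (right block), printed in each cell and coloured by log10(CPM + 1). Fbln2 is highest in the Schwann and endothelial columns and Fbln5 in the endothelial column of both libraries, while the other genes except Eln are highest in the mesenchymal column.

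Other genes of elastic fibre assembly were counted as 4 lists. Of the lysyl oxidases, which cross-link elastin and collagen, 2 of 4 tested were higher in injured mesenchymal cells (Lox at 1.02 and Loxl2 at 1.15), and the list median was 0.88, beside 0.19 for all genes tested. Of assembly and microfibril-associated genes, 4 of 19 tested were higher and 1 lower, with a median of 0.80. The higher ones were Emilin1 (1.69), whose product lies at the elastin and microfibril interface, Vcan (1.47), a large proteoglycan that binds fibrillin, Efemp2 (1.10), the fibulin that brings lysyl oxidase to elastin, and Bgn (1.01), a small proteoglycan. The lower one was Adamtsl4 (-1.50), whose product binds fibrillin. Of elastases and their inhibitors, 2 of 8 tested were higher, Timp1 (3.85) and Mmp14 (1.46), with a median of 0.63, and of the integrin receptors 0 of 5 met a call, with a median of 0.49. Over all genes tested 3.3% were called higher, or 8.15% of those that reached 50 CPM. The TMM shift of -0.13 would take Lox, Efemp2 and Bgn under 2-fold. In FACS over uninjured cells 0 of 4 cross-linking genes, 3 of 16 assembly genes and 3 of 10 elastases and inhibitors were higher, beside 4.48% of all genes tested, or 11.1% of those that reached 50 CPM. There 1 assembly gene (Adamtsl4, -1.31) and 1 inhibitor (Timp2, -1.04) were lower, beside 3.37% of all genes, and 0 of 5 receptors met a call. The 3 higher elastases and inhibitors were Ctss (8.19), Timp1 (3.61) and Mmp14 (2.12). Ctss had 582 UMIs in FACS cells and 1 in uninjured cells. Mononuclear phagocyte markers came to 363 CPM among FACS mesenchymal-like cells and 9.22 CPM among uninjured ones, and their part in the Ctss ratio was not tested.

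In endoneurial-like cells 3 of 4 cross-linking genes tested were higher in injured cells, where 4.34% of all genes tested, or 10.8% of those that reached 50 CPM, were called higher. These were Lox with 99.3 CPM in injured cells against 9.88 CPM in uninjured cells (3.33, 2.45 to 4.36), Loxl3 (1.81) and Loxl2 (1.36). Of the assembly genes 5 of 15 tested were higher, among them Emilin1 (2.42) and Bgn (2.25). Another 2 were lower, Ltbp4 (-1.49) and Adamtsl4 (-1.25), beside 3.81% of all genes tested. Ltbp4 encodes a latent TGF-beta binding protein that works with Fbln5 in elastic fibre assembly. Among elastases and inhibitors 3 of 9 tested were higher, Timp1 (5.87), Serpina3n (3.33) and Timp3 (1.65), and 0 of 4 receptors met a call. In perineurial-like cells 1 of 4 cross-linking genes, 3 of 16 assembly genes, 3 of 7 elastases and inhibitors and 0 of 5 receptors were higher and 0 were lower. There 2.9% of all genes tested, or 5.73% of those that reached 50 CPM, were called higher. Some of these calls rest on few UMIs in injured and uninjured cells, as with Vcan (11 and 0), Fkbp10 (22 and 5) and Timp1 (46 and 3). In epineurial-like cells 0 genes of the 4 lists met a call, where 1.69% of all genes tested were called higher and 0.916% lower.

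The 10 genes did not share one pattern across cells. Over 15 pools of at least 50 cells, log2(CPM + 10) of Fbn1 and Fbn2 had a Pearson r of 0.49, that of Fbn1 and Mfap5 0.85 and that of Fbn2 and Eln 0.02. The pools share libraries and depth, and the injured mesenchymal-like class shares cells with the injured subclasses, so these are descriptions. Among 8163 genes, the nearest to Fbn2 were Cxcl5 (0.92), Rdh10 and Cthrc1, and the nearest to Fbn1 were C1rb (0.97), Fstl1 and Cygb. The nearest to Mfap5 were Mrc2 (0.98), Sfrp1 and Clmp, to Mfap2 Scn7a (0.97), to Mfap4 Sfrp2 (0.97), to Fbln1 Gabra3 (0.96), to Eln Ces2g (0.94), to Fbln5 Zfp521 (0.93), to Fbln2 Prnp (0.92) and to Efemp1 Dcn (0.97), which is itself a mesenchymal marker. In pooled counts, the 10 genes together made up 0.542% of UMIs in injured and 0.436% in uninjured mesenchymal cells. A median of 5 of the 10 was detected per injured cell and 4 per uninjured cell, and at 1000 UMIs per cell 3 and 2 in injured and uninjured cells.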

How the data were processed

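The deposited files are 4 tables of counts: integer UMI totals for each gene in each cell, which the authors did not scale. They cover all barcodes of the injured FACS and injured beads libraries, and the authors' mesenchymal cells of the injured and uninjured beads libraries. The submitters' processing notes name mm10. Aligner, counting tool, strand setting and how mesenchymal cells were picked are not stated in the labels or files read here.

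Genes are compared over those listed in both tables of a pair. The 10 genes, gene lists and marker lists were chosen with earlier results of these data known. Of the other pathway genes, those past the size rule are named, at most the 4 highest and 4 lowest of each list. Nearest genes are the 3 with the highest Pearson r of log2(CPM + 10) among genes with at least 50 CPM in a pool.

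Cells with at least 200 genes were clustered without the 10 genes (scanpy 1.11.5, 2000 variable genes, 30 principal components, 15 neighbours, Leiden resolution 0.8) and named "-like" by the mean log2 enrichment of fixed markers over the lower quartile of clusters. Doublets were not removed. Intervals used scipy 1.17.1. TMM factors came from edgeR 4.0.16 and size factors from DESeq2 1.42.0 in R 4.3.3. The interval and calling code was tested on simulated data. Positions are from GENCODE vM21 (GRCm38) and promoters from RefSeq (GRCm38.p6). Alternatives are named with their effect in the closing section. A split of the Schwann cell-like cells is not reported here.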

Additional observations from a re-analysis of the deposited data

Results flagged for a closer look

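Both Fbln1 and Mfap5 had intervals wholly on opposite sides of 0 in different subclasses, injured over uninjured. Fbln1 had a log2 ratio of 2.65 (1.78 to 3.64) in endoneurial-like cells and 0.85 (0.09 to 1.67) in perineurial-like cells, against -0.45 (-0.64 to -0.26) in epineurial-like cells. Mfap5 had 0.34 (0.18 to 0.50) in endoneurial-like cells and 0.56 (0.44 to 0.69) in epineurial-like cells, against -0.49 (-0.72 to -0.27) in perineurial-like cells. Of these values the endoneurial-like ratio of Fbln1 alone reached 2-fold. The difference between subclasses was not tested, since each condition is 1 library.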

How the results depend on the processing

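In the injured over uninjured comparison the counts of genes called, 2 higher and 1 lower, were unchanged under 9 of 10 alternatives. These were TMM and DESeq2 scaling, thinning to 1000 UMIs, no minimum CPM, leaving out cells with other classes' markers, cell division UMIs or the most UMIs, mesenchymal-like clusters as the injured pool, and named subclasses only, the last chosen after seeing the data. Of these 9, leaving out the minimum CPM could not change a call, since a call needs at least 50 CPM in a pool. With the 3 subclasses at the same weight and all other mesenchymal cells left out, 1 gene was higher and 0 were lower. Subclass counts held at resolutions 0.4 and 1.6 and without subclass markers in the clustering. In the FACS over uninjured comparison TMM and DESeq2 scaling each left 2 genes higher. The FACS clustering alternatives were also chosen after seeing the data, and of them resolution 1.6 and the minimum of 500 genes moved Eln's highest class to endothelial cell-like. Of 244 single ratios under alternatives, 195 stayed within their interval, 49 moved outside it and 0 called ratios changed sign. The ratios with no minimum CPM are among the 195 and could not move. With at least 500 genes per cell the FACS over uninjured ratio of Fbln2 was -1.63 and of Eln -1.42, and the FACS over beads ratios of Eln and Fbln2 turned to -0.34 and -0.15. No paired analysis was possible because each group is 1 library. Depth limits Eln and the perineurial-like values most, since several pools hold fewer than 15 UMIs of a gene.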
